A study of Homo sapiens with 3 samples.

Results

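Histone-high MM.1S cells were the cells of the MM.1S monoculture in which histone transcripts took the largest share of the counted RNA. They were chosen by this share alone: among the 3870 cells with at least 1000 unique molecular identifiers (UMIs, 1 per captured RNA molecule), the 15% with the highest percentage of UMIs on genes named HIST1H, HIST2H, HIST3H or HIST4H were taken, which gave 580 cells. They were set against the 1936 cells at or below the median share, called comparison cells below, and 1354 cells lay between. The library held 3994 cell barcodes, and the series 11822.

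The series asked how multiple myeloma cells and bone marrow stromal cells influence each other, and it holds 3 Drop-seq libraries, 1 per condition. MM.1S is an established myeloma line, grown alone here, and HS-5 is a bone marrow stromal line, also grown alone. In the other library both lines had shared a culture for 4 h. No drug or cytokine treatment was labelled for any of them, and each line stands for its cell type by 1 established line, with no primary cells. With 1 library per condition and cells that are not replicates of it, no test was made. All intervals are exact 95% intervals that cover counting error only.

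Replication-dependent histone genes supply the histones that package newly copied DNA, and their mRNAs accumulate during S phase and are destroyed when replication ends. Unlike other mRNAs, most of them end in a short stem-loop bound by SLBP instead of a poly(A) tail, and their transcription is driven by NPAT at histone locus bodies. Drop-seq beads capture RNA through oligo-dT, so such mRNAs are caught only where they carry a tail or a stretch of A. Some histone genes can also be processed to a polyadenylated mRNA, often in cells that do not divide.

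The sequences of the leading histone genes are shown because capture on oligo-dT depends on runs of A. In each transcript model of GENCODE release 29 (GRCh38), the 20 bases richest in A were located, and runs of A are in capitals. HIST1H4C encodes histone H4, HIST1H1D, HIST1H1E and HIST1H1C encode linker histones, and HIST1H2AM encodes histone H2A.
HIST1H4C: AAAAAAcAAAAAcAAAAAAA
HIST1H1D: gAAgAAAAgcatcAAAAAga
HIST1H1E: AAAAAAgcgAAAAgcccgAA
HIST1H1C: ctAAgAAAAcaccgAAgAAA
HIST1H2AM: agcccgcgacAAcAAAAAga
The stretch of HIST1H4C lies after the stop codon at the very end of the model (chr6:26104291-26104310, plus strand) and holds 18 A. A window with at least as many A was present in 8.79% of 19669 protein-coding genes. The stretches of HIST1H1D (13 A, chr6:26234471-26234490, minus strand), HIST1H1E (12 A, chr6:26156892-26156911, plus strand), HIST1H1C (12 A, chr6:26055958-26055977, minus strand) and HIST1H2AM (10 A, chr6:27892921-27892940, minus strand) lie in coding sequence. Windows of 12 A are common, being present in 80.9% of protein-coding genes. The windows of the other leading genes are not shown. HIST1H2BG held the most, with 20 A after the stop codon, 10 bases from the end of its model. As many A were present in 3.11% of protein-coding genes. HIST1H2BN held 15 A, HIST1H2AC and HIST1H2BD 14 A each, HIST2H2AC 13 A, HIST1H4H 12 A and HIST3H2A 9 A. The part of these stretches in capture was not tested. The models of HIST1H1D, HIST1H1C and HIST1H2AM are coding sequence alone.

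The histone stem-loop was found in a transcript model of 6 of the 12 histone genes with the highest levels. All matches lay after the stop codon. The longest model of 4 of the 12 was coding sequence alone, so no match could be found in it. HIST1H4C was among the genes without a match. The stem-loop is shown in capitals, with 7 bases on either side, for HIST1H2AC and HIST1H2BD. These encode H2A and H2B and behaved unlike HIST1H4C in these cells.
HIST1H2AC: acccaaaGGCTCTTTTCAGAGCCcccctac
HIST1H2BD: tcccaaaGGCTCTTTTAAGAGCCacgcatg
The HIST1H2AC stem-loop (chr6:26124662-26124691, plus strand) is followed by 1107 further bases of the same model, and the longest HIST1H2BD model (789 bases) skips the stem-loop that a shorter model (496 bases) holds at chr6:26158580-26158609 on the plus strand. For both genes the annotation therefore holds an mRNA that runs past or around the stem-loop.

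Upstream regions are shown because some of these genes were high in the same cells and others in different cells. HIST1H4C had no entry in the RefSeq promoters used, so its own upstream region could not be set beside them. The 150 bases before the start of each gene are from RefSeq (GRCh38.p14), with matches on either strand in capitals to the TATA box (TATAAA), the CCAAT box (CCAAT) and an element of linker histone promoters (AAACACA); no matches of different motifs overlapped.
HIST1H1D: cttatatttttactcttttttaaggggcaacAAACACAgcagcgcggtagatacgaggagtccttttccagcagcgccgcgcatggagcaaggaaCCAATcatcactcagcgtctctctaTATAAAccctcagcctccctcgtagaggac
HIST1H1E: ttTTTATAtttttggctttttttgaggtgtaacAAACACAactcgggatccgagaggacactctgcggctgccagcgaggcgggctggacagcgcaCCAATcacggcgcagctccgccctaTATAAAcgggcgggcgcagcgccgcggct
HIST1H1C: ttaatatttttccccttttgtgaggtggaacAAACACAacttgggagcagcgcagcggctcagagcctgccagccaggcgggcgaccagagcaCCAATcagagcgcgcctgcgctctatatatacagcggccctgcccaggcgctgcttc
HIST1H2AM: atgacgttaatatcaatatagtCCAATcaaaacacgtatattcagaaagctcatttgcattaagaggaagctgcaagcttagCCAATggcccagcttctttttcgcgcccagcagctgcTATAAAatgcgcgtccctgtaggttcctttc
HIST1H2AC: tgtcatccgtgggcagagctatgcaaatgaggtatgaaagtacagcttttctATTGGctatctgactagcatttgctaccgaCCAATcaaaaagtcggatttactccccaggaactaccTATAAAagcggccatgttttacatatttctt
These windows are chr6:26234988-26235137 (minus strand), chr6:26156179-26156328 (plus), chr6:26056471-26056620 (minus), chr6:27893186-27893335 (minus) and chr6:26124022-26124171 (plus). AAACACA began 117 to 119 bases upstream in all 3 linker histone genes and was in 2.71% of 35116 promoters of the same length. CCAAT, present in 23.5% of promoters, was in 9 of the 10 leading histone genes that matched a single RefSeq entry. TATAAA, present in 6.71% of promoters, was in 6 of those 10. HIST1H2BD, not shown, held 3 matches of CCAAT, and TATAAA 28 or 29 bases upstream, depending on which annotated start was taken. HIST1H2AM and HIST1H2AC, which ran in opposite directions in these cells, both held CCAAT 68 bases and TATAAA 31 bases upstream. The matches are letters only, and no binding was measured.

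Histone share formed a continuous range across the library, with no gap at the limit. No histone UMI was found in 448 of the 3870 cells (11.6%), the median share was 0.131%, and the highest was 2.26%. Histone-high cells had a median share of 0.576%, from 19 histone UMIs per cell (4 to 91). The cell just inside the limit had 0.3971% and the cell just outside 0.3965%. Together the 580 cells held 52.2% of all histone UMIs of the scored cells.

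**Figure D1:**
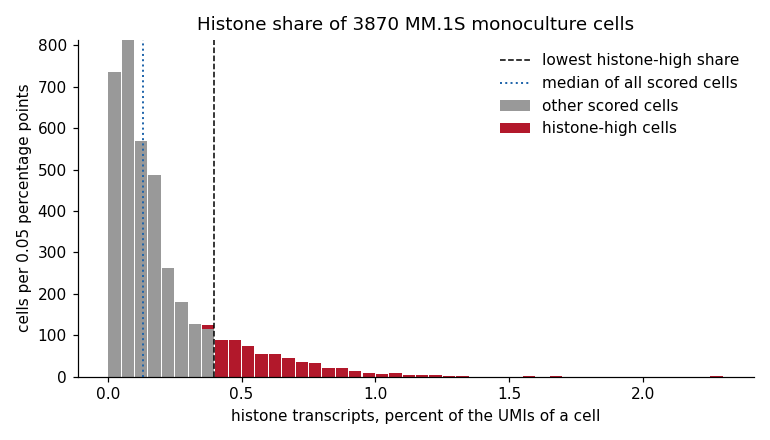
Histogram of histone UMIs as a percentage of all UMIs of a cell (horizontal axis, bins of 0.05 percentage points) for the 3870 MM.1S monoculture cells with at least 1000 UMIs. Histone-high cells are in red; the dashed line is their lowest share (0.397%) and the dotted line is the median of all cells (0.131%), and no gap separates the 580 cells from the rest.

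A single gene made up most of the signal. HIST1H4C (chromosome 6, 26103876 to 26104310) gave 78.6% of the histone UMIs of histone-high cells and 49.6% of those of comparison cells. Its level, in UMIs per 1000000 of all UMIs (CPM), was 4883 in histone-high cells (interval 4786 to 4981), 1383 in the cells between and 320 in comparison cells. It was missing from 7 histone-high cells, and 56 carried no other histone gene. The histone levels in these cells were used by the choice and are a description. Histone genes are near-identical copies within a class, so reads could be split between or lost from members of a class in the authors' counting.

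The linker histones HIST1H1D and HIST1H1E came next. HIST1H1D stood at 437 CPM in histone-high cells against 21.0 CPM in comparison cells, and HIST1H1E at 404 CPM against 24.2 CPM. HIST1H1E was detected in 56.6% of histone-high cells and 5.53% of comparison cells. HIST1H2AM stood at 90.4 CPM (77.6 to 105) against 5.42 CPM (3.54 to 7.94), and was detected in 20.7% against 1.29% of cells. These shares are at unequal depth. Both marker genes given for these cells, HIST1H1E and HIST1H2AM, were thus high, though HIST1H4C, and not they, set the share.

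Other histone genes did not follow. HIST1H2AC, although it counted towards the share, was at 27.8 CPM in histone-high cells (20.9 to 36.2), 127 CPM in the cells between and 50.6 CPM in comparison cells (44.5 to 57.4). HIST1H2BD was at 22.7 CPM (16.6 to 30.4), 134 CPM and 55.4 CPM (49.0 to 62.5) in the same order. HIST1H1C was at like levels in histone-high cells (182 CPM) and the cells between (180 CPM), and lower in comparison cells (59.6 CPM), which were chosen for a low share of all histone genes. By class, H1 was 9.66 times and H4 14.2 times higher in histone-high cells, H2A 1.96 times, H3 1.78 times and H2B 0.962 times. Without HIST1H4C the other 11 H4 genes together were at 23.2 CPM against 25.2 CPM. Of the 66 histone genes of the table, 52 had at least 1 UMI in histone-high cells.

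To measure histone genes that did not take part in the choice, cells were ranked again by the share of HIST1H4C alone. The 580 cells with the highest share included 513 of the histone-high cells (88.4%). In them HIST1H1D was at 399 CPM against 28.8 CPM in the 1935 comparison cells of this ranking, a log2 ratio of 3.75 (3.53 to 4.07). HIST1H2AM had a log2 ratio of 3.31 (2.93 to 4.07) and HIST1H1E of 3.34 (3.14 to 3.63). HIST1H1C was at 148 CPM against 134 CPM, with a log2 ratio of 0.15 whose interval (-0.05 to 0.35) included 0. HIST1H2AC was at 10.96 CPM against 114 CPM (22 against 533 UMIs), a log2 ratio of -3.27 (-4.07 to -2.77). HIST1H2BD was lowest, at 3.98 CPM against 126 CPM (8 against 587 UMIs), with a log2 ratio of -4.67 (-6.20 to -4.00). In MM.1S cells some histone genes were thus found with HIST1H4C and others largely without it. Median depth was 3234 UMIs in the chosen cells and 2044 in the others of this ranking, and its part in the ratios was not tested.

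The same ranking was made in HS-5 monoculture cells, which the rule had not used. HIST1H1D (log2 ratio 2.42, 2.07 to 2.86), HIST1H1E (2.21, 1.71 to 2.86) and HIST1H2AM (2.505, 1.28 to 5.63) were again higher in the 270 cells with the highest HIST1H4C share than in 901 comparison cells. HIST1H2AC had a log2 ratio of 0.26 (-0.56 to 1.08) and HIST1H2BD of -0.60 (-2.12 to 0.58), so both intervals included 0, and both lay wholly above those of MM.1S cells. HIST1H1C was 1.03 (0.41 to 1.72). In the coculture the counts were too few for most of these genes: HIST1H2BD had 0 UMIs in the 150 chosen HS-5 cells against 13 in 501 others, and 0 in 56 chosen MM.1S cells against 8 in 189 others.

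**Figure D2:**
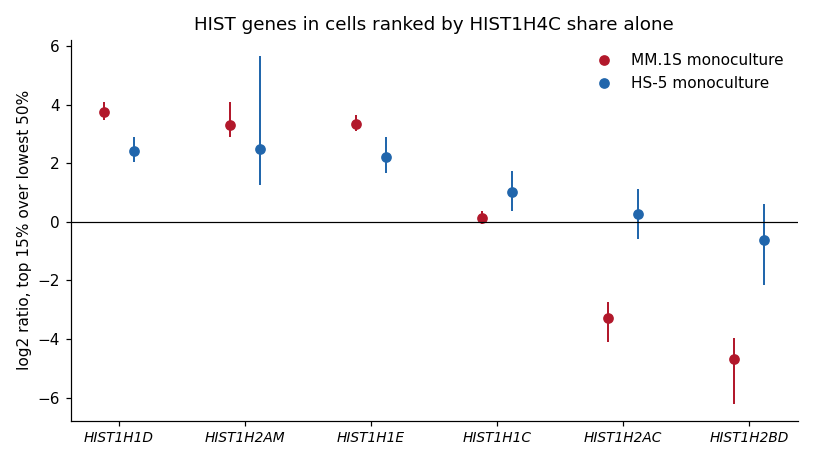
Log2 ratio of 6 histone genes between the 15% of cells with the highest HIST1H4C share and the cells at or below its median, in MM.1S (red, 580 against 1935 cells) and HS-5 monoculture (blue, 270 against 901 cells), with exact 95% intervals for counting error. HIST1H2AC and HIST1H2BD lie at -3.27 and -4.67 in MM.1S cells, while their HS-5 intervals include 0.

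With the histone genes left out of all sums and totals, the rest of the transcriptome was compared between histone-high and comparison cells over the 2761 genes whose mean over both groups reached 50 CPM. A gene could reach that mean on its level in either group alone, which favoured a ratio towards that group. A gene was counted as higher or lower from a difference of 0.32 on the log2 scale. On this scale 563 genes (20.4%) were higher and 163 (5.90%) were lower in histone-high cells, and the median log2 ratio of all genes was 0.10. Scaled by the median of gene ratios instead, which moved that median to 0.01, 362 were higher and 305 lower. The shares of 20.4% and 5.90% are the background for every count below. Histone-high cells also held more RNA counts, with a median of 3175 UMIs per cell against 2108, and a median mitochondrial share of 5.90% against 6.32%. No doublet caller was run, and doublets of 2 MM.1S cells cannot be seen in these counts.

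The 5 S-phase genes that were to be checked were all higher. PCNA, the sliding clamp of replicating polymerases (chromosome 20, 5114953 to 5126626), was at 254 CPM against 119 CPM, a log2 ratio of 1.08 (0.91 to 1.26). MCM3, a subunit of the replicative helicase (chromosome 6, 52264009 to 52284881), was at 250 CPM against 132 CPM (0.91, 0.74 to 1.09). RRM2, the regulated subunit of ribonucleotide reductase (chromosome 2, 10120698 to 10131419), was at 104 CPM against 26.3 CPM (1.94, 1.65 to 2.31). TYMS, thymidylate synthase (chromosome 18, 657604 to 673578), was at 140 CPM against 62.4 CPM (1.15, 0.92 to 1.41). MCM5, another helicase subunit (chromosome 22, 35400063 to 35425430), was at 37.6 CPM against 26.7 CPM (0.48, 0.06 to 0.92), under the limit of 50 CPM. Summed, the 5 genes had a log2 ratio of 1.09 (0.997 to 1.196). It was 0.90 with both groups chosen among cells of like depth and 1.13 without the 5% of cells with most UMIs. With HIST1H4C left out of the share, the choice kept 181 of the 580 cells and the ratio of the S-phase genes was -0.34. With the share taken from linker histone genes alone, which leaves HIST1H4C out as well, it was 0.66, so the direction depended on which other histone genes were counted.

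At equal depth PCNA, RRM2, TYMS and MCM3 were again detected in more histone-high cells, and for MCM5 the intervals overlapped in only 1 of 2 random draws. With every cell thinned to 1000 UMIs, PCNA was detected in 21.4% of histone-high cells (18.1 to 24.9%) and 9.04% of comparison cells (7.80 to 10.4%), and RRM2 in 8.97% (6.77 to 11.6%) and 1.81% (1.26 to 2.51%). TYMS was detected in 12.4% against 5.53% and MCM3 in 19.5% against 10.6%. For MCM5 the shares were 3.45% (2.12 to 5.28%) and 2.58% (1.92 to 3.39%), with intervals that overlapped, and in a second random draw 5% (3.37 to 7.10%) and 1.96% (1.39 to 2.68%), with intervals that did not. Before thinning the shares were 50.2% against 21.4% for PCNA, 25% against 5.48% for RRM2, 35.7% against 12.4% for TYMS, 50% against 24.02% for MCM3 and 11.4% against 5.58% for MCM5. At 1000 UMIs most histone-high cells thus had no UMI of any given S-phase gene. No cells of the series are known to lack these genes, so the part of free RNA was not tested.

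Genes of origin licensing, the replication fork and nucleotide supply were mostly higher. Of the 43 genes on a list of G1/S and S-phase genes, 25 passed 50 CPM, and 24 of these were higher and none lower, with a median log2 ratio of 0.94. Some, such as RRM2, passed on their level in histone-high cells. Genes of the list under 50 CPM were mostly above 0 too, but UNG (-0.30) and UHRF1 (-0.30) were below it, with intervals that included 0. Of 18 licensing genes, which load the helicase onto origins, 10 passed 50 CPM, and all 10 were higher. They were led by MCM10 (1.65) and ORC6 (1.24) and ended with MCM6 (0.47) and DBF4 (0.45). MCM10 and ORC6, at 26.5 and 41.5 CPM in comparison cells, passed only on their level in histone-high cells. Of the fork genes, CLSPN (46.3 CPM in comparison cells) and POLD3 (49.8 CPM) passed in the same way. At the fork 15 of 19 were higher, among them the checkpoint mediator CLSPN (1.40), the topoisomerase TOP2A (1.36) and the polymerase delta subunit POLD3 (1.22), and TOP1 (0.09) was among the 4 that were not. Deoxynucleotide synthesis had 5 of 7 genes higher, among them RRM2, TYMS, the thymidine kinase TK1 (1.52) and DUT (0.78), beside NME1 (0.316) and CMPK1 (0.01). The S-phase chromatin list had 11 of 13 higher, with HMGB2 at 1.21 and HMGA1 at 0.58, and the replication stress list 7 of 9 higher and 1 lower, with RAD51AP1 at 1.52, CHEK1 at 1.06 and BTG2 at -1.18.

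Mitotic genes were higher as well. Of the 55 genes of the G2/M list 31 passed 50 CPM, and all 31 were higher, with a median log2 ratio of 1.15. They ran from NDC80 of the outer kinetochore (2.10) to the lamin receptor LBR (0.40). Some of the 31, such as NDC80 (26.7 CPM in comparison cells) and KIF2C (28.8 CPM), passed only on their level in histone-high cells. For such genes a higher ratio was favoured by the filter. CDCA5, which holds sister chromatids together, had the highest ratio of all 2761 genes, at 102 CPM against 21.9 CPM (2.16, 1.87 to 2.57). Next among the 15 highest were RRM2, the condensin subunit NCAPH (1.85), FBXO5 (1.80), an inhibitor of the anaphase-promoting complex, the kinesins KIF23 (1.76), KIF15 (1.76) and KIF2C (1.75), GTSE1 (1.74), CDCA8 (1.69), the proliferation antigen MKI67 (1.66), MCM10, SHCBP1 (1.63), NUSAP1 (1.61) and TPX2 (1.56). Among the 15 highest, only NUSAP1 (83.0 CPM) was above 50 CPM in comparison cells. Summed, the G2/M list was at 7743 CPM against 3701 CPM and the S-phase list at 4423 CPM against 2415 CPM. These sums took in the genes under 50 CPM as well. At 1000 UMIs per cell, 95% of histone-high cells (551 of 580) had UMIs of both lists, 1.03% of the S-phase list alone and 3.45% of the G2/M list alone. In comparison cells these shares were 61.4%, 10.3% and 19.1%. Before thinning the S-phase list was detected in 98.8% against 85.9% and the G2/M list in 99.3% against 92.0% of cells.

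Across finer ranges of histone share, the S-phase list was level at first and then climbed, and the G2/M list rose a little at first and then more. The S-phase list was at 2415 CPM in comparison cells and 2353 CPM between the 50th and 70th percentile, 3354 CPM up to the 85th, 4367 CPM up to the 95th and 4544 CPM (4378 to 4715) in the top 5%. The G2/M list went from 3701 CPM (3647 to 3756) to 3846 CPM (3759 to 3934), and then to 5560, 7759 and 7709 CPM. PCNA was at 119, 110, 170, 251 and 261 CPM, and RRM2 at 26.3, 26.4, 70.6, 98.9 and 114 CPM. For PCNA and RRM2 the intervals of the lowest pair of ranges overlapped, as did those of the highest pair.

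**Figure D3:**
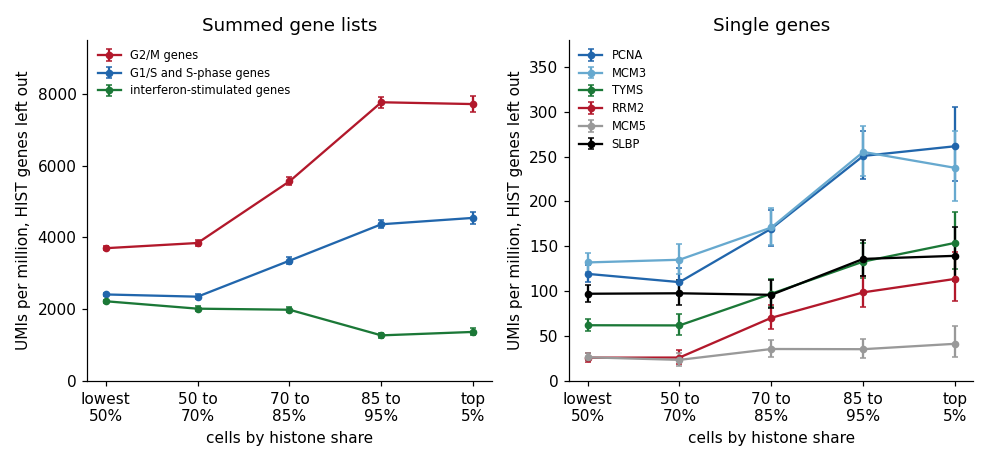
Levels in CPM (histone genes left out) of 3 summed gene lists (left) and 6 single genes (right) in 5 ranges of histone share, from the lowest 50% of cells to the top 5%, with 95% Poisson intervals. G2/M genes go from 3701 to 7709 and G1/S and S-phase genes from 2415 to 4544, whereas interferon-stimulated genes go from 2226 to 1373.

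Genes that make, process and store histones differed less. SLBP, which binds the stem-loop, was at 137 CPM against 97.4 CPM (log2 ratio 0.49, 0.27 to 0.71), and the transcriptional activator NPAT at 44.7 CPM against 37.5 CPM (0.25, -0.13 to 0.63), an interval that included 0. SLBP was level at 96.2 to 97.9 CPM up to the 85th percentile of the share, and stood at 136 CPM and 140 CPM in the 2 ranges above it. On the list of histone mRNA factors 10 of 18 genes were higher and 1 lower, with a median of 0.43. The highest were SNRPB (0.58), SNRPG (0.55) and SNRPF (0.54), core proteins shared by the spliceosome and the particle that trims histone mRNAs, and the cleavage factor CSTF3 was lower (-0.38). Among histone chaperones 9 of 17 were higher, among them ANP32E (0.81), NASP (0.77), which carries newly made histones, and HAT1 (0.66), which acetylates them, while ATRX (-0.12) and DAXX (0.05), partners in replication-independent deposition, were not. Of the replication-independent variants, H2AFZ was at 768 CPM against 408 CPM (0.91), H2AFY at 0.54 and H2AFV at 0.51, and neither H3F3B (0.20) nor H1F0 (-0.09) passed the limit of 0.32.

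Lists of growth and stress differed less. Heat shock genes had 7 of 12 higher (median 0.35), with DNAJB1 at 0.97, and the ribosome biogenesis list 7 of 18 (median 0.29), with LYAR at 0.62. Immediate early genes had 2 of 5 higher, JUN at 0.66 and IER2 at 0.36. None of 20 genes of endoplasmic reticulum folding, 16 of cholesterol synthesis, 9 of glycolysis or 13 mitochondrial genes passed the limit in either direction, with medians of 0.09, 0.08, 0.05 and -0.03. Of the G1/S cyclins and their regulators 3 of 24 passed 50 CPM, with FBXO5 higher and CDK6 (-0.02) and CCND2 (-0.05) at like levels. Small RNAs that lack a poly(A) tail summed to 10.2 CPM (6.21 to 15.7) in histone-high and 8.13 CPM (5.78 to 11.1) in comparison cells.

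**Figure D4:**
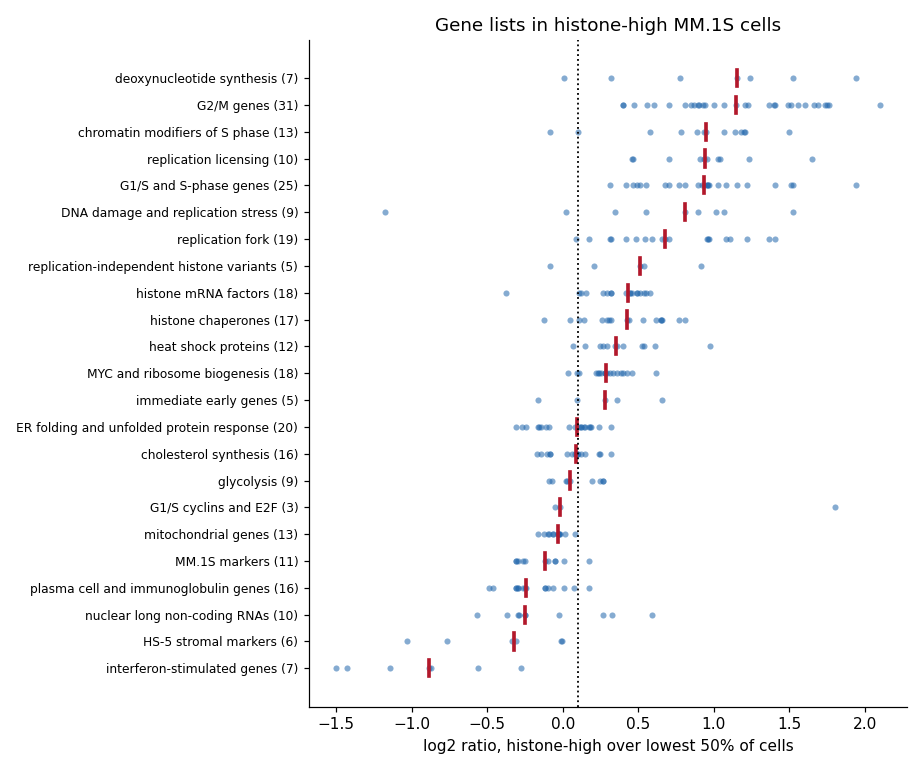
Log2 ratio of histone-high over comparison cells (horizontal axis) for the genes of each list whose mean level reached 50 CPM; blue points are genes, red bars the list medians, the number of genes is in brackets and the dotted line is the median of all 2761 genes (0.10). Lists of replication and division lie between 0.68 and 1.15, except the G1/S cyclin list of 3 genes at -0.02, and interferon-stimulated genes lie at -0.89.

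PRSS2, a trypsinogen whose counts are uncertain because it has near-identical copies, had the lowest ratio, at 176 CPM against 591 CPM (-1.74, -1.91 to -1.58), with 458 CPM in the cells between. At 1000 UMIs it was detected in 6.72% of histone-high and 12.8% of comparison cells (11.03% and 17.5% before thinning). BTG2, an antiproliferative gene, was at 101 CPM against 230 CPM (-1.18, -1.41 to -0.97). The small GTPase RND3 (-1.25), the galectin LGALS1 (-1.03), TPST2 (-1.06) and the non-coding RNAs AC104024.1 (-1.07) and GABPB1-AS1 (-1.03) were also among the 10 lowest. RND3, TPST2 and AC104024.1, at 47.3, 39.1 and 33.0 CPM in histone-high cells, reached a mean of 50 CPM only on their level in comparison cells.

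Interferon-stimulated genes, which answer to antiviral signals, had the lowest median of the lists (-0.89): of 7 that passed 50 CPM, 6 were lower and none higher. IFI6 was at 85.4 CPM against 243 CPM (-1.50, -1.75 to -1.28), ISG20 at 56.9 CPM against 155 CPM (-1.43), IFI27 at 39.6 CPM against 88.8 CPM (-1.14) and ISG15 at 301 CPM against 552 CPM (-0.87). BST2 (-0.28) was the member that did not pass the limit. IFI27 reached a mean of 50 CPM only on its level in comparison cells, which favoured a lower ratio. IFI6 was detected at 1000 UMIs in 7.24% of histone-high cells, 18.2% of the cells between and 17.1% of comparison cells (17.2%, 29.5% and 26.9% before thinning). The level of IFI6 was 228 CPM between the 70th and 85th percentile of the share and 83.3 CPM between the 85th and 95th. These are averages over wide ranges, so they do not place the fall at the limit itself.

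Genes that mark the line differed little. Of 15 MM.1S markers 11 passed 50 CPM, and none of them passed the limit of 0.32 (median -0.12). SDC1, under 50 CPM, was at 44.2 CPM in histone-high and 35.9 CPM in comparison cells against 135 CPM in the HS-5 monoculture. IGLL5 had no UMI, and all other MM.1S markers were higher in both groups than in HS-5. The immunoglobulin and plasma cell list had 2 of 16 lower and none higher (median -0.25), with SSR4 at -0.49 and PIM2 at -0.46, MZB1 at 0.17 and JCHAIN at 5636 CPM against 6986 CPM (-0.31). Of the HS-5 stromal markers, 6 of 20 passed 50 CPM and 3 of these were lower (S100A6, TIMP1 and LGALS1). The list summed to 5197 CPM in histone-high and 7189 CPM in comparison cells, and its members differed in how well they told the lines apart. The collagen genes COL1A1, COL1A2, COL6A1 and COL6A2 were at 0 to 3.75 CPM in both groups of MM.1S cells against 454 to 716 CPM in the HS-5 monoculture, and the matrix protein SPARC was at 0 CPM and 0.626 CPM against 324 CPM. COL3A1 was low throughout, at 6.10 CPM in histone-high cells, 2.29 CPM in comparison cells and 4.88 CPM in HS-5. Levels in both groups of MM.1S cells exceeded those of HS-5 for the fibronectin gene FN1 (671 and 833 CPM against 252 CPM) and for CAV1 (457 and 461 CPM against 356 CPM), and S100A6 stood at 2455 and 3100 CPM against 3085 CPM. Nuclear non-coding RNAs had 2 of 10 higher and 2 lower, among the latter NEAT1 (-0.57) and GAS5 (-0.37).

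Histone-high cells were not all alike. In 538 of them HIST1H4C gave at least 50% of the histone UMIs, and in 42 it gave less. These 42 cells were shallower, with a median of 1628 UMIs against 3240, at a like median share (0.590% and 0.576%), and HIST1H1D, HIST1H1E and HIST1H1C led among their other histone UMIs. Their 5 S-phase genes summed to 464 CPM (342 to 616), between the 802 CPM of the 538 cells and the 367 CPM of comparison cells. Their G2/M list was at 4643 CPM (4236 to 5077) against 7915 CPM in the 538 cells, and their interferon-stimulated genes at 2573 CPM against 1237 CPM. On interferon-stimulated genes they thus stood at or above the level of comparison cells (2226 CPM). The number of histone genes per cell was 3 at the median and up to 11, and 121 cells had at least 5.

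Applied to the other cells of the series, the same rule gave groups in which the summed S-phase genes were higher, at lower ratios and with RRM2 giving much of the sum in HS-5 cells. Cells of the coculture were given a line by genes at least 50 times higher in 1 monoculture, and 118 barcodes with genes of both lines were left out. The summed 5 S-phase genes had a log2 ratio of 0.61 (0.23 to 0.98) in the 56 histone-high MM.1S cells of the coculture, 0.47 (0.34 to 0.61) in 270 of the HS-5 monoculture and 0.88 (0.68 to 1.08) in 150 HS-5 cells of the coculture. For the G2/M list these were 0.51 (0.37 to 0.65), 0.78 (0.75 to 0.80) and 1.37 (1.32 to 1.42). RRM2 was higher in all 3 groups (2.352, 1.15 and 1.83), and gave 381 of the 695 UMIs of the 5 genes in the histone-high HS-5 monoculture cells and 227 of 351 in those of the coculture. MCM3 was higher in none, at -0.24 (-1.13 to 0.56), -0.28 (-0.62 to 0.04) and -0.70 (-1.33 to -0.13). MCM5 was at -0.92 (-4.14 to 1.198), -0.31 (-0.87 to 0.21) and -1.44 (-2.86 to -0.34), and PCNA at 0.62 (-0.06 to 1.26), -0.11 (-0.45 to 0.23) and 0.39 (-0.09 to 0.85). TYMS was at 0.79 (-0.04 to 1.58), 0.59 (0.16 to 1.02) and 1.02 (0.29 to 1.76). Interferon-stimulated genes, lower in MM.1S monoculture, had ratios of -0.10 (-0.37 to 0.17), -0.06 (-0.19 to 0.08) and -0.17 (-0.34 to just below 0). These differences between libraries were not tested. IFI6 was at 59.7 CPM (5 UMIs) against 110 CPM (31 UMIs) in MM.1S cells of the coculture. Its log2 ratio was -0.87 (-2.60 to 0.50), with an interval that included 0. PRSS2 in these cells was at 11.9 CPM (1 UMI) against 240 CPM (-4.22, -9.66 to -1.81).

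The limit of the MM.1S monoculture was passed more often in the coculture. Of 378 MM.1S cells there, 115 (30.4%) had a share of at least 0.397%, against 14.99% in monoculture by construction, and among HS-5 cells 288 of 1001 (28.8%) did so against 223 of 1802 (12.4%) in monoculture. HIST1H4C made up 96.7% and 97.8% of the histone UMIs of the histone-high MM.1S and HS-5 cells of the coculture, against 78.6% and 86.3% in the monocultures. HIST1H1E, at 407 CPM of the histone-free total in the MM.1S monoculture, rested on 1 UMI in those 56 coculture cells (11.9 CPM). Coculture and monoculture are single libraries of different depth, with medians of 789 UMIs in the coculture and 2183 and 949 in the MM.1S and HS-5 monocultures, so that condition and library cannot be told apart. The libraries shared 39 to 76 barcodes in pairs, and no histone-high cell had a barcode of another library.

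The histone genes that ran against HIST1H4C were followed further, a choice made after their values were seen. Outside the histone-high cells, 306 cells had at least 2 UMIs of HIST1H2AC and HIST1H2BD together and 2344 had none, with median depths of 2316.5 and 2123 UMIs. Both groups lay below the limit of the histone share, and UMIs of the pair count towards that share, so the choice itself left less room for HIST1H4C in the cells with these transcripts. Its part in the other ratios was not tested. Over 2671 genes, 238 (8.91%) were higher and 596 (22.3%) lower, by the same limit, in cells with these transcripts. Of the 43 S-phase genes 11 passed 50 CPM, and all 11 were lower (median -1.61). Of the 55 G2/M genes 21 passed, and 19 of these were lower (median -1.39). Some of them, such as TYMS (22.4 CPM against 85.3 CPM), passed only on their level in cells without these transcripts, which favoured a lower ratio. TK1 was lowest of all genes, at 11.2 CPM against 113 CPM (-3.22, -4.40 to -2.45), and PCLAF (-2.03), STMN1 (-1.97), NUSAP1 (-1.92), TYMS (-1.88) and PCNA (-1.67) were among the others. Interferon-stimulated genes were higher in 7 of 8 (median 0.74), with IFI6 at 373 CPM against 203 CPM and ISG20 at 230 CPM against 122 CPM. BTG2 (0.83), the superoxide dismutase SOD2 (1.37), ANXA1 (1.23) and PHF14 (1.55) were higher too. SOD2 and PHF14, at 49.4 and 36.2 CPM in cells without these transcripts, passed 50 CPM only on their level in cells with them. HIST1H1C was at 200 CPM against 84.6 CPM. Among histone-high cells, 21 of 580 had at least 2 UMIs of the pair.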

How the data were processed

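MM.1S, HS-5 and a 4 h coculture were each profiled as 1 Drop-seq library, and the authors deposited the counts of UMIs for every gene in each cell, not normalized. The submitters' processing notes name UMI-tools 1.0.0, STAR 2.5.3a, featureCounts 1.6.4, SAMtools 1.9 and Cell Ranger 3.0.2 with GRCh38; the annotation release is not given in the sources used here. The MM.1S library held 10433182 UMIs in 3994 barcodes, with a median of 2183.

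The members and gene lists were chosen with earlier results of these data known. Cells with at least 1000 UMIs were scored, and the top 15% were compared with the cells at or below the median. UMIs were summed over cells and scaled to 1000000 UMIs (CPM). Histone genes of histone-high, middle and comparison cells are relative to all UMIs; all other levels, including histone genes in cells ranked by HIST1H4C, in the other libraries and in cells with HIST1H2AC or HIST1H2BD, are relative to totals without histone genes. Log2 ratios used a pseudocount of 1 CPM, over genes whose mean reached 50 CPM, and CPM is not scaled to transcript length. Levels have exact Poisson intervals, shares Clopper-Pearson intervals and ratios exact conditional binomial intervals, at 95%. No test was made, since each condition is 1 library. A count of 3 UMIs came to 1.52 CPM in histone-high and 0.626 CPM in comparison cells. Shares of cells were taken after thinning each cell to 1000 UMIs.

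Named genes were the 5 S-phase genes of the rule, the 15 highest and 10 lowest ratios, the 3 highest and lowest of each list, the 12 leading histone genes, SLBP and NPAT; others were chosen after their values were seen. A few genes picked by this are not described. Coordinates and transcript sequences are from GENCODE release 29, and promoters from RefSeq (GRCh38.p14), which matched 10 of the 12 leading histone genes. Other limits on the share, depth, genes in the share, scaling and low values were tried, and the scripts were tested on simulated data. Python 3.11.15, numpy 2.4.6, scipy 1.17.1 and matplotlib 3.10.9 were used.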

Additional observations from a re-analysis of the deposited data

Results flagged for a closer look

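Some log2 ratios of histone-high over comparison cells lay on the other side of 0 in another line or library, with intervals that did not include 0. The differences themselves were not tested, and each value rests on 1 library. LGALS1 was at -1.03 in the MM.1S monoculture and 0.22 in the HS-5 monoculture. SLBP was at 0.49 in the MM.1S monoculture and -0.31 in the HS-5 monoculture. MCM3 and MCM5, at 0.91 and 0.48 in the MM.1S monoculture, were at -0.70 and -1.44 in HS-5 cells of the coculture. The summed histone chaperones were at 0.39 in the MM.1S monoculture, -0.24 in the HS-5 monoculture and -0.088 in HS-5 cells of the coculture. The summed mitochondrial genes were at -0.06 in the MM.1S monoculture, 0.26 in MM.1S cells of the coculture, 0.40 in the HS-5 monoculture and 0.10 in HS-5 cells of the coculture.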

How the results depend on the processing

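With HIST1H4C left out of the share, all 3 ratios reversed: -0.34 for the summed 5 S-phase genes (1.09 as reported), -0.39 for the median of the S-phase list (0.94) and -0.35 for that of the G2/M list (1.15), with 136 genes higher and 252 lower. In the other alternatives run, these 3 ratios stayed above 0. In the same order they were 0.66, 0.50 and 0.39 with linker histones alone (247 higher, 68 lower), 1.41, 1.249 and 1.39 without polyadenylated histone genes, 0.90, 0.76 and 0.88 with cells chosen at like depth, 0.96, 0.82 and 0.93 for the top 25% (108 lower), and 0.97, 0.82 and 0.95 against all other cells. The 2 medians were 0.85 and 0.94 with the share taken at 1000 UMIs, 0.80 and 1.03 with at least 2000 UMIs, 1.02 and 1.21 with equal weight per cell, 0.87 and 1.06 without the 10% highest in mitochondrial share, 0.89 and 1.10 with a pseudocount of 5, 0.84 and 1.01 with the median of ratios, and 0.87 and 0.90 when genes had to reach 100 CPM. The S-phase median was 0.99 without the 5% of cells with most UMIs, and the G2/M median 1.09 against the lowest 25%. Counts of higher and lower genes, 563 and 163 as reported, were 362 and 305 with the median of ratios, 1107 and 525 from 20 CPM, 298 and 68 from 100 CPM, and 176 and 42 at 1.5-fold, where the limits themselves set how many genes counted. For the other alternatives the cause was not tested. Leaving out the 30 cells (5 of them histone-high) whose barcode was in another library or differed by 1 base from another of the same library, chosen after seeing the data, gave 1.09, 0.94 and 1.16, with 558 genes higher and 164 lower.

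No paired analysis was possible because each condition had 1 library and no test was made. Intervals cover counting error only, and no spread between cultures was measured. Thinning to 1000 UMIs left each of the 5 S-phase genes undetected in most histone-high cells. Histone-high cells were deeper than comparison cells, and capture on oligo-dT sees only part of the histone mRNAs.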
